A study of Mus musculus with 12 samples.

Results

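The cytosolic heat shock genes described here are 10 genes of the deposited table of 55487, chosen by symbol: Hspa4l, Cacybp, Hsph1, Hspa8, Hsp90aa1, Hspa1a, Hspa1b, Dnajb1, Dnaja1 and Hspb1. They were picked as chaperones and co-chaperones of the cytosol that are under HSF1, and because Hspa4l and Cacybp were lower in KO liver. All 10 matched 1 row each and passed the filter on low counts in both tissues. The choice used the liver comparison of genotypes, so the liver values below are a description and carry no test.

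RNA was sequenced from 2 tissues, liver and brain, of 6 mice. Mice A, C and F carry the label METTL5 KO and mice B, D and E the label WT, which gives 4 groups of 3 libraries. METTL5 methylates an adenosine of 18S rRNA. Per the study's methods, the KO is a whole-body deletion of exon 2 of Mettl5, made by crossing a floxed line with a CMV-cre line, in mice derived from C57bl/6 x 129S6 hybrid ES cells and backcrossed to B6. The labels name the controls WT, and the study's text describes the RNA-seq controls as heterozygous in some places and as wild type in another, so WT stands here for the label alone. The text also speaks of pairs of mice, which the labels do not identify; age, sex and collection time of these mice are not in the labels. Library totals ran from 14403309 to 21623180 counts. Mettl5 itself was at 10.1 to 19.0 CPM (normalised read counts scaled to a common library size) in WT liver and 4.64 to 5.23 CPM in KO liver, and at 3.96 to 7.13 CPM in WT brain and 2.61 to 3.12 CPM in KO brain, without overlap in either tissue (brain log2 fold change -0.84, SE 0.27, edgeR adjusted p 0.373). Summed hepatocyte markers ran from 82490 to 107300 CPM in liver and from 88.6 to 301 CPM in brain, and summed neuron markers from 11.3 to 22.1 CPM in liver and from 2352 to 2768 CPM in brain, so the libraries matched their tissue labels. The libraries are of whole tissue, in which fewer cells of a type and less RNA per cell cannot be told apart.

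Heat shock proteins hold other proteins in a foldable state. HSF1, the main heat shock transcription factor, is kept inactive by chaperones and, when unfolded proteins draw these away, binds DNA as a trimer at heat shock elements, which are inverted repeats of the unit GAA. HSP70 proteins (Hspa8, Hspa1a, Hspa1b) bind and release clients in a cycle driven by ATP. J proteins (Dnajb1, Dnaja1) bring them clients and start ATP hydrolysis, and HSP110 proteins (Hsph1, Hspa4l) release the ADP. HSP90 (Hsp90aa1) matures kinases and steroid receptors, small heat shock proteins (Hspb1) hold unfolded clients without ATP, and CACYBP, the calcyclin-binding protein, carries a CS domain of the kind found in HSP90 co-chaperones. In unstressed tissue Hspa8 is made at all times, while Hspa1a and Hspa1b are the classic genes switched on by heat.

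The DNA in front of the genes was searched for heat shock elements, the sequence that HSF1 is known to bind. RefSeq promoter windows of GRCm38.p6, which run from 250 bases before to 50 bases after a start site, were at hand for 8 of the 10 members (12 windows) and not for Hspa8 and Hsp90aa1. Pairs of units were searched as GAANNTTC and TTCNNGAA on both strands, and 3 units in a row as a GAANNTTC whose second unit also begins a TTCNNGAA, so that the run contains both pairs. A pair stood in a window of 5 members (Hspa1a, Hspa1b, Hspb1, Hsph1 and Dnaja1), while 15.056% of all 32851 windows and 16.973% of the 27025 genes with a window held one. In the windows of Cacybp, Hspa4l and Dnajb1 these letters did not occur. The run of 3 units was found in Hsph1, and in 0.603% of all windows (0.662% of genes). Only these exact letters in these windows were searched, so a missing match does not show that a gene lacks an element. The 4 stretches of 150 bases that follow end at the base before the start site, and capitals mark the pairs. They show the inducible HSP70 pair and Hspb1, whose windows hold a match, beside Cacybp, whose window holds none. Hspa1a is at chr17:34972157-34972306 (minus strand), Hspa1b at chr17:34959239-34959388 (minus strand), Hspb1 at chr5:135887769-135887918 (plus strand) and Cacybp at chr1:160212893-160213042 (minus strand), all upstream of the gene's first exon.
Hspa1a: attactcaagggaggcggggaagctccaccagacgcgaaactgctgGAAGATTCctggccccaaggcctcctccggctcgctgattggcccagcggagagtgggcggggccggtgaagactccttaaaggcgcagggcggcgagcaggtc
Hspa1b: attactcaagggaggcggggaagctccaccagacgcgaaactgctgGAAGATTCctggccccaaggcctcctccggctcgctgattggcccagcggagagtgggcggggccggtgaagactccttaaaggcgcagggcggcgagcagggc
Hspb1: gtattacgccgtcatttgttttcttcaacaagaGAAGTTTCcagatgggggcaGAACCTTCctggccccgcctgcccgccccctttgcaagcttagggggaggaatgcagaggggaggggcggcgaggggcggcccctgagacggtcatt
Cacybp: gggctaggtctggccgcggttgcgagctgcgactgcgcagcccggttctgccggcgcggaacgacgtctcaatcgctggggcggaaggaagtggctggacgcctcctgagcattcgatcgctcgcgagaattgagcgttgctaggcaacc

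The stretches of Hspa1a and Hspa1b differed at 1 of 150 bases, and their whole windows at 4 of 300. Both carried GAANNTTC from -104 to -97, with the start base counted as 0, followed by the reverse complement of CCAAT from -67 to -63. Hspb1 carried 2 copies, from -117 to -110 and from -97 to -90. CCAAT, the site of the factor NF-Y, occurred on either strand in 37.408% of all windows, and TATAAA, which 13.616% of windows held, was in no member's window. The matches of Hsph1 and Dnaja1 lie inside the span that the count table gives for these genes, which begins upstream of the RefSeq starts used, and 30 bases around each are shown. The Hsph1 pair is at chr5:149636351-149636380 and its run of 3 units at chr5:149636287-149636316 (minus strand), the run lying after the start site and printed as its reverse complement. The Dnaja1 pair is at chr4:40722333-40722362 (plus strand).
Hsph1 pair: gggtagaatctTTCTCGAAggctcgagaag
Hsph1 run: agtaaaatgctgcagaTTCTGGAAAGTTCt
Dnaja1 pair: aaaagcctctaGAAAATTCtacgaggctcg

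The first question was how abundant each member was. Levels were compared between genes as CPM per kilobase of exon, and values are the mean of 3 libraries. The length is that of all annotated exons of a gene, from 1031 bases for Hspb1 to 11501 bases for Hspa4l. A transcript can be shorter than this, so the order of the members also depends on the annotation. Hspa1a and Hspa1b are nearly alike in sequence, and their levels are uncertain for that reason as well. Hspa8, the constitutive HSP70, led in liver with 226 ± 42.7 CPM per kb in WT (SD, n = 3) and 178 ± 35.5 in KO (SD, n = 3). In WT brain it was at 190 ± 13.2 CPM per kb (SD, n = 3), and its range overlapped that of Hsp90aa1, at 167 ± 17.04 (SD, n = 3). In KO brain Hsp90aa1 came first, at 220 ± 34.8 CPM per kb (SD, n = 3) against 207 ± 37.1 (SD, n = 3) for Hspa8, again with overlap. Below these stood Cacybp, Hsph1, Dnaja1, Hspb1 and Dnajb1 in WT liver, from 16.7 down to 6.11 CPM per kb, with overlapping ranges between neighbours in that order. Hspa4l and Hspa1b followed with overlapping ranges, at 3.76 ± 0.487 (SD, n = 3) and 2.91 ± 0.537 (SD, n = 3), and Hspa1a was last at 0.312 ± 0.0853 (SD, n = 3). In KO liver the order of the first pair was turned without overlap, with Hspa1b at 2.90 ± 0.760 CPM per kb (SD, n = 3) and Hspa4l at 2.08 ± 0.0650 (SD, n = 3). In both brain groups Hspa4l was the fifth in order, at 12.5 ± 1.19 CPM per kb (SD, n = 3) in WT, and did not overlap its neighbours Cacybp and Dnajb1.

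**Figure D1:**
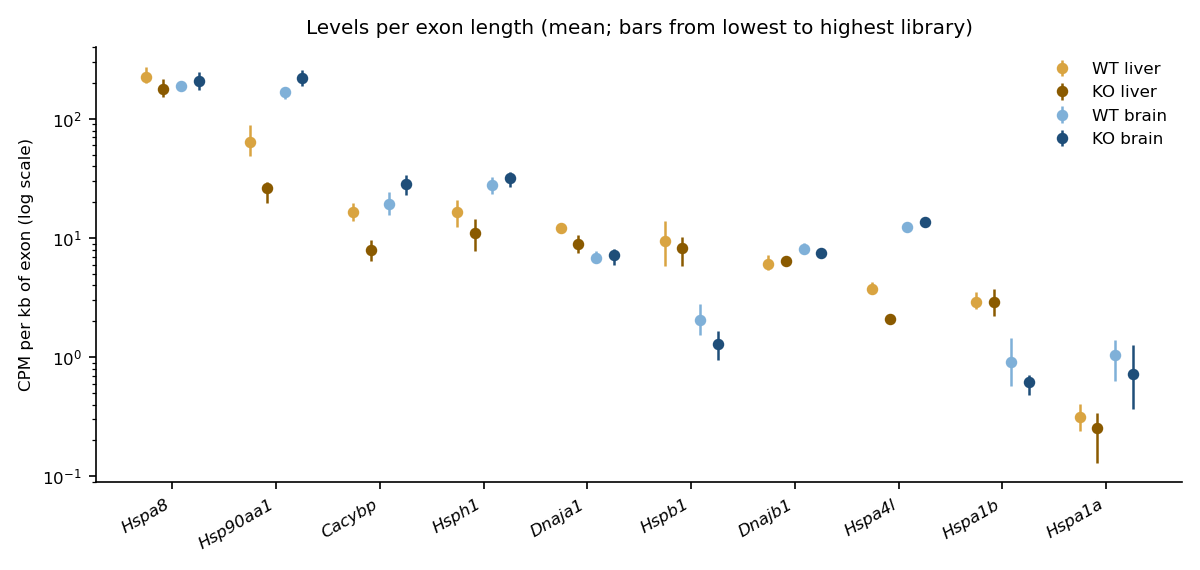
Level of each cytosolic heat shock gene in CPM per kb of exon (log axis) in the 4 groups; points are means of 3 libraries and bars run from the lowest to the highest library. Hspa8 lies between 178 and 226 CPM per kb in every group, whereas Hspa4l and Hsp90aa1 are higher in both brain groups than in both liver groups, and Hspb1 and Hspa1b are lower.

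Liver and brain were then compared within each genotype, a contrast that did not enter the choice of the genes although it shares the liver libraries with it. In WT mice 8 of 10 members passed the test (edgeR quasi-likelihood test, adjusted p under 0.1 over all genes), 3 higher and 5 lower in liver. Of all 17694 genes tested, 78.3% passed (35.4% higher and 42.9% lower in liver), so a share of this size is common between these tissues. In KO mice 7 members passed, 2 higher and 5 lower in liver. Hspa4l and Cacybp were chosen by comparing these same KO and WT livers, so whether they pass is no evidence in either genotype. Without them 3 members were higher and 4 lower in WT, and 2 higher and 3 lower in KO. Over all genes in KO, 80.2% of 17396 passed (36.2% higher, 44.1% lower). Lower in liver in both genotypes were the HSP110 gene Hsph1, the HSP90 gene Hsp90aa1 and Hspa1a, and in WT also Dnajb1. Higher in both were the small heat shock gene Hspb1 and the other inducible HSP70 gene, Hspa1b.

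Hspa4l, an HSP110 protein also known as APG-1, on chromosome 3 from 40745382 to 40796103 in mm10, had lower values in liver in both genotypes. Every liver lay below every brain. It was at 49.5, 39.0 and 41.0 CPM in the livers of WT mice B, D and E and at 155, 129 and 147 CPM in their brains. On the log2 scale, liver minus brain was -1.73 (SE 0.17) in WT and -2.72 (SE 0.14) in KO, both given without a test since Hspa4l was chosen on the KO and WT livers. Hsph1, the other HSP110 protein of the list, had log2 fold changes of -0.77 (SE 0.22, edgeR adjusted p 0.00840) in WT and -1.55 (SE 0.23, edgeR adjusted p 1.55e-04) in KO. The Hsph1 value in WT was -0.47 without mouse E (edgeR adjusted p 0.0932) and -1.09 without mouse D (edgeR adjusted p 0.00188). Its paralog Hspa4, the HSP110 protein most cells make at all times, gave a reference within each library that needs no scaling. Per exon length, Hspa4l stood at 0.0866 to 0.0968 of Hspa4 in WT liver and at 0.386 to 0.465 in WT brain, and Hsph1 at 0.324 to 0.540 and 0.916 to 0.997.

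Hsp90aa1, the inducible HSP90, on chromosome 12 from 110690605 to 110702728, was at 192 to 353 CPM in WT liver and at 580 to 701 CPM in WT brain. Its log2 fold change of liver against brain was -1.38 (SE 0.25, edgeR adjusted p 4.81e-04) in WT and -3.07 (SE 0.22, edgeR adjusted p 7.87e-07) in KO. Against its constitutive paralog Hsp90ab1, per exon length, Hsp90aa1 was at 0.0866 to 0.130 in WT liver, 0.0353 to 0.0580 in KO liver, 0.303 to 0.478 in WT brain and 0.487 to 0.755 in KO brain. These 4 ranges do not overlap. Cacybp had log2 fold changes of -0.19 (SE 0.21) in WT and -1.85 (SE 0.21) in KO, given without a test because the livers in both are those on which the gene was chosen. With library totals the WT value was -1.03.

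The members higher in liver were Hspb1, Hspa1b and, in WT, Dnaja1. Hspb1, on chromosome 5 from 135887919 to 135889563, was at 14.3, 8.69 and 5.96 CPM in WT liver and at 1.87, 2.87 and 1.58 CPM in WT brain. Its log2 fold change was 2.20 (SE 0.37, edgeR adjusted p 2.85e-04) in WT and 2.67 (SE 0.33, edgeR adjusted p 4.37e-05) in KO. Dnaja1, a J protein of the cytosol, was at 105, 112 and 94.9 CPM in WT liver and at 67.2, 54.6 and 55.1 CPM in WT brain (log2 fold change 0.83, SE 0.16, edgeR adjusted p 7.72e-04); in KO its value was 0.30 (SE 0.18, edgeR adjusted p 0.149). Dnajb1, the J protein that is the main partner of inducible HSP70, was lower in WT liver (-0.39, SE 0.17, edgeR adjusted p 0.0662) and did not pass in KO (-0.22, SE 0.15, edgeR adjusted p 0.199), although the KO livers lay below the KO brains without overlap. Without WT mouse B the Dnajb1 value had an edgeR adjusted p of 0.143, and without WT mouse E 0.188. Hspa8 passed in neither genotype, at 0.26 (SE 0.21, edgeR adjusted p 0.287) in WT and -0.23 (SE 0.21, edgeR adjusted p 0.335) in KO, where it was -0.51 without mouse C (edgeR adjusted p 0.0610) and 0.004 without mouse A (edgeR adjusted p 0.990). The direction for Hspa8 and Dnaja1 and the calls for Hspa8, Dnaja1 and Dnajb1 depended on the scaling: with library totals the median of all genes moved from -0.16 to -0.99 in WT and from -0.17 to -0.71 in KO, and there Dnaja1 was at -0.01 in WT and -0.24 in KO, Hspa8 was at -0.58 in WT, and the members called were 2 higher and 7 lower in each genotype.

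The inducible pair ran in opposite directions. Hspa1a, on chromosome 17 from 34969190 to 34972156 in mm10, and Hspa1b, on the same chromosome from 34956436 to 34959238, are single-exon copies of nearly the same sequence. The counting options that the study names do not say how reads that match both copies were treated. Such reads may be missing from both counts, so the level of each copy, their ratio and their sum are uncertain. Hspa1a had 5 to 17 counts in the liver libraries and 21 to 104 counts in the brain libraries, and its log2 fold change of liver against brain was -1.73 (SE 0.42, edgeR adjusted p 0.00338) in WT and -1.51 (SE 0.55, edgeR adjusted p 0.0303) in KO. Hspa1b had 93 to 146 counts in liver and 26 to 103 in brain, with 1.68 (SE 0.36, edgeR adjusted p 0.00154) in WT and 2.21 (SE 0.31, edgeR adjusted p 9.07e-05) in KO. Within a library and per exon length, Hspa1b stood at 6.29 to 21.2 times Hspa1a in the 6 livers and at 0.545 to 1.31 times Hspa1a in the 6 brains. With the counts of both summed, the pair was at 8.25 to 10.6 CPM in WT liver and 3.49 to 8.24 CPM in WT brain, or 0.69 on the log2 scale (SE 0.30, edgeR adjusted p 0.0619), and 1.18 (SE 0.34, edgeR adjusted p 0.00909) in KO. Without KO mouse C the Hspa1a value in KO was -1.09 (edgeR adjusted p 0.127).

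**Figure D2:**
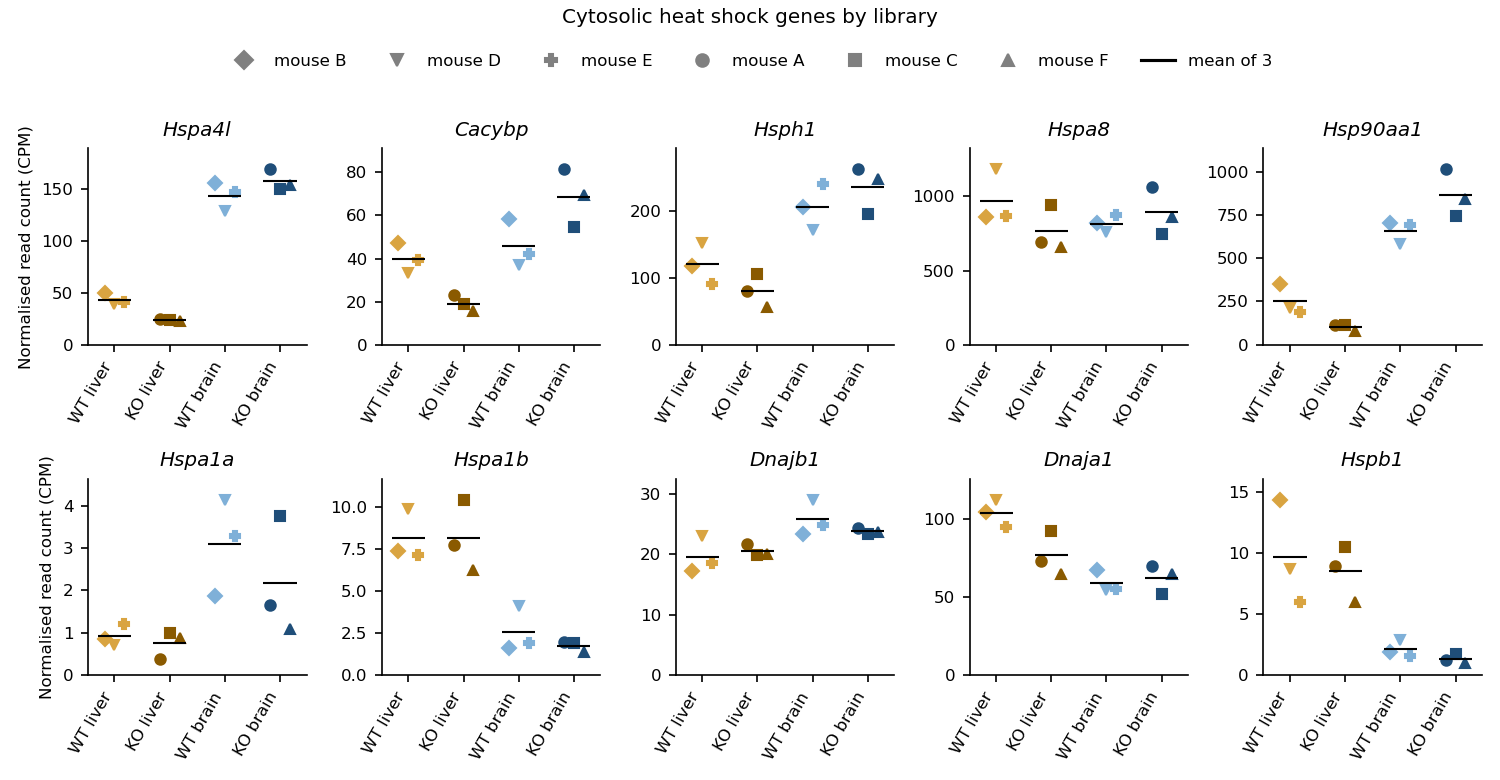
Normalised read count (CPM) of the 10 cytosolic heat shock genes in each library; symbols mark the mice, lines the mean of 3 libraries, and each axis starts at 0. In KO liver Hspa4l, Cacybp, Hsp90aa1 and Dnaja1 lie below every WT liver library, and in brain only Hsp90aa1 separates the genotypes.

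The comparison of KO with WT liver is the one from which the genes were chosen, and it is described without a test. Of the 10 members, 9 had a log2 fold change below 0, with a median of -0.42 against -0.0024 over all 14075 genes. The signs of Hspa1b, Hspb1 and Dnajb1 turned in some alternatives. In 4 members (Hspa4l, Cacybp, Hsp90aa1 and Dnaja1) the 3 KO libraries lay below the 3 WT libraries, as they did for 5.18% of all genes tested. No gene passed an adjusted p under 0.1 in this comparison by the edgeR fit used here (0.0% of genes), 7.33% had an unadjusted p under 0.05, and DESeq2 called 0.631% of 27088 genes. Other edgeR fits of this comparison did call genes, 443 with no filter on low counts, 82 with a covariate for Y-linked transcripts, 87 without WT mouse D, 2 without KO mouse C and 3 with all 12 libraries in 1 fit. These shares are background, and nothing is read from them for genes that were chosen on this contrast.

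Hsp90aa1 was the member with the lowest value. It was at 353, 211 and 192 CPM in WT mice B, D and E and at 114.8, 116.8 and 77.4 CPM in KO mice A, C and F, a log2 fold change of -1.32 (SE 0.26). Every KO library lay below the lowest WT library, and without mouse B, the highest of WT, the value was -1.01. Hspa4l and Cacybp are the genes for which the list was drawn up. Hspa4l was at 24.4, 24.3 and 23.05 CPM in KO liver, a narrow range below all WT livers, and its log2 fold change was -0.88 (SE 0.13). Cacybp, on chromosome 1 from 160202367 to 160212875, was at 47.2, 33.4 and 39.1 CPM in WT liver and at 22.9, 18.9 and 15.5 CPM in KO liver, a log2 fold change of -1.09 (SE 0.18). All 3 genes thus stood in KO liver at 0.402 to 0.543 of their WT level by the fit.

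Dnaja1 was at 72.9, 92.2 and 65.0 CPM in KO liver, with the KO mouse C next to the lowest WT value, and its log2 fold change was -0.47 (SE 0.16). The gene spans chromosome 4 from 40722150 to 40737149, overlaps Smu1 on the other strand by 608 bases, and was counted by strand. Hsph1 ran from 90.1 to 152 CPM in WT and from 56.2 to 105 CPM in KO liver, and Hspa8 from 860 to 1182 CPM and from 661 to 940 CPM, so both overlapped. Their log2 fold changes were -0.60 (SE 0.26) and -0.37 (SE 0.20). With single libraries left out they ran from -0.84 to -0.38 and from -0.55 to -0.195, lowest without KO mouse C and highest without WT mouse D. For both genes mouse D was the highest in WT and mouse C in KO.

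The remaining 4 members had log2 fold changes between -0.32 and 0.04, and their libraries overlapped. Dnajb1 ran from 17.3 to 23.0 CPM in WT and from 19.8 to 21.6 CPM in KO liver, a log2 fold change of 0.04 (SE 0.15). Hspa1b was at 7.40, 9.88 and 7.17 CPM in WT and at 7.72, 10.4 and 6.23 CPM in KO (-0.03, SE 0.25), and Hspb1 had the same lowest value of 5.96 CPM in both genotypes (-0.22, SE 0.34). Hspa1a was at 0.851, 0.717 and 1.21 CPM in WT and at 0.386, 1.0 and 0.871 CPM in KO (-0.32, SE 0.50). The pair summed was at -0.06 (SE 0.24). With single libraries left out, Hspb1 ran from -0.47 to 0.17 (the latter without WT mouse B), Hspa1b from -0.26 to 0.14 (without KO mouse C and WT mouse D), Hspa1a from -0.57 to -0.01 (without KO mouse C and KO mouse A) and Dnajb1 from -0.06 to 0.17 (without WT mouse B and WT mouse D).

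Mice differed within a group. In KO liver, mouse F held the lowest value of 8 members and mouse C the highest of 7, and in WT liver mouse E held the lowest of 5 and the highest of 1. Averaged over the 10 members, the deviation from the tissue mean on the log2 scale was 0.35, 0.28 and 0.08 in WT mice B, D and E and -0.24, -0.02 and -0.46 in KO mice A, C and F. Mice E and F, 1 of each genotype, lacked Y-linked transcripts. Without KO mouse C the median of the members was -0.60. In the same livers, mitochondrial rRNA took 10.7% to 16.9% of counts in WT and 7.36% to 8.66% in KO, and 5 of 5 immune and Kupffer cell markers tested were below 0 (summed levels of 142 to 215 CPM in WT and 107 to 209 CPM in KO). The part of either in these values was not tested.

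**Figure D3:**
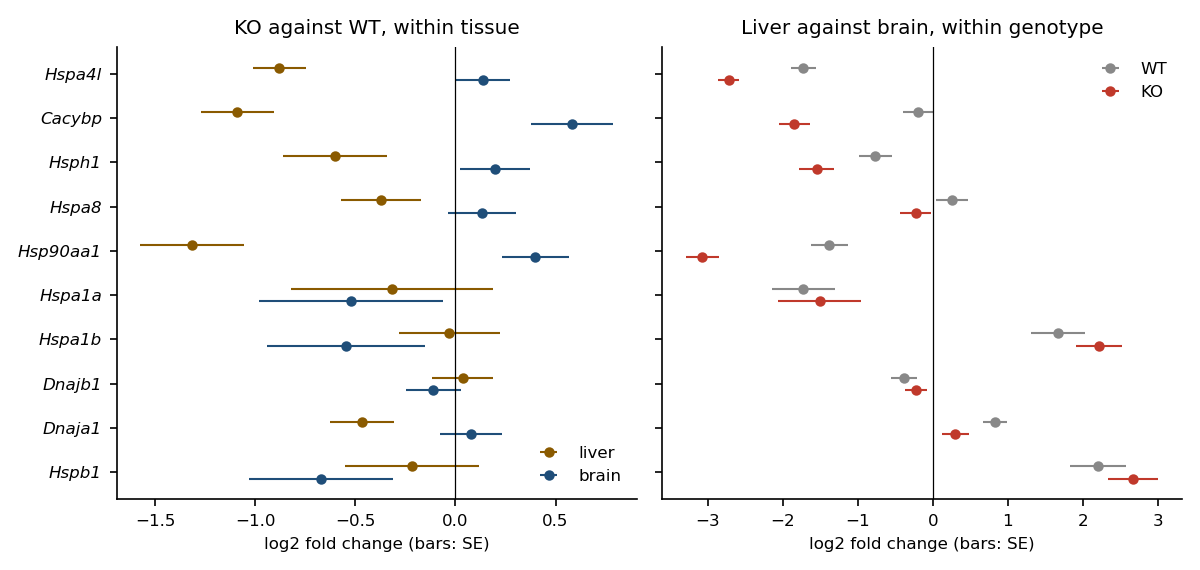
Log2 fold change of each cytosolic heat shock gene (points) with its standard error (bars), KO against WT in liver and brain on the left and liver against brain in WT and KO on the right. On the left, Hsp90aa1 is at -1.32 in liver and 0.40 in brain, and Hspb1 is at -0.22 and -0.67.

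Brain gave the comparison of genotypes that the choice did not use. No member passed the test there (0 of 10, edgeR, adjusted p under 0.1 over 17188 genes), where 0.064% of all genes did; DESeq2 also called 0 of 10, and 0.84% of 31774 genes. Cacybp and Hsp90aa1 had an unadjusted p under 0.05 by edgeR, as had 11.0% of all genes. The values of the members were above 0 for 6 and below 0 for 4, with a median log2 fold change of 0.11 against -0.0016 over all genes. That median was -0.02 without KO mouse A and 0.04 without WT mouse D. With library totals it was -0.13, with 2 members above and 8 below 0 and the median of all genes at -0.23, and with the GC offset described below it was -0.02, so its sign depended on the processing.

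Cacybp was at 58.2, 37.1 and 42.2 CPM in WT brain and at 81.3, 54.8 and 69.3 CPM in KO brain. KO mouse C lay below WT mouse B, so the groups overlapped, and the log2 fold change was 0.58 (SE 0.20, edgeR adjusted p 0.394). With no filter on low counts it passed, at 0.56 (edgeR adjusted p 0.0305), a fit in which 3.15% of 31780 genes did. Hsp90aa1 was at 701, 580 and 691 CPM in WT brain and at 1012, 741 and 839 CPM in KO brain, the one member without overlap between genotypes, as 8.42% of all genes were in this direction. Its log2 fold change was 0.40 (SE 0.17, edgeR adjusted p 0.432), and the adjusted p ran from 0.210 to 0.965 over the alternatives.

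The other HSP70 and HSP110 members lay within the spread of the libraries. Hspa4l was at 155, 129 and 147 CPM in WT and 169, 150 and 154 CPM in KO brain (0.14, SE 0.14, edgeR adjusted p 0.692), Hsph1 ran from 171 to 239 and from 195 to 261 CPM (0.20, SE 0.17, edgeR adjusted p 0.658), and Hspa8 from 759 to 873 and from 748 to 1064 CPM (0.13, SE 0.17, edgeR adjusted p 0.763). Dnaja1 was at 0.08 (SE 0.16, edgeR adjusted p 0.857). At these standard errors a difference of such a size could not be told from 0, and the values do not show that the genotypes were alike.

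The inducible HSP70 genes, Dnajb1 and Hspb1 had values below 0 in KO brain. Hspb1 was at 1.28, 1.70 and 0.984 CPM in KO brain, from 19 to 30 counts a library, and its log2 fold change was -0.67 (SE 0.36, edgeR adjusted p 0.505). Hspa1a was at -0.52 (SE 0.46, edgeR adjusted p 0.661), Hspa1b at -0.55 (SE 0.39, edgeR adjusted p 0.593) and Dnajb1 at -0.11 (SE 0.14, edgeR adjusted p 0.758). In WT brain the library of mouse D was the highest of the 3 for all 4 of these genes and the lowest for the other 6. With each library left out in turn, Hspb1 ran from -0.90 (without KO mouse C) to -0.39 (without WT mouse D), Hspa1a from -1.18 (without KO mouse C) to -0.19 (without KO mouse F) and Hspa1b from -0.77 (without WT mouse B) to -0.04 (without WT mouse D).

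GC content moved with the genotype contrast in both tissues. Over all genes, the median log2 fold change in brain went from 0.18 at 40% to 44% GC to -0.18 at 60% to 64% GC, and in liver from -0.12 to 0.12 over the same bins. The 6 members with values above 0 in brain had 42.1% to 49.5% GC (Cacybp, Dnaja1, Hspa4l, Hsp90aa1, Hsph1 and Hspa8) and the 4 below 0 had 52.4% to 61.2% (Dnajb1, Hspa1b, Hspa1a and Hspb1), a split noticed after the values were seen. With a GC trend of each library as an offset, an alternative added after seeing the data, Hspa4l was at -0.05, Dnaja1 at -0.12 and Dnajb1 at 0.005 in brain, each with the sign turned, while Cacybp was at 0.39 and Hsp90aa1 at 0.31, and no member passed. In liver the same offset left Hspa4l at -0.76, Cacybp at -0.97, Hsp90aa1 at -1.26 and Dnaja1 at -0.34. The cause of the trend was not tested.

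**Figure D4:**
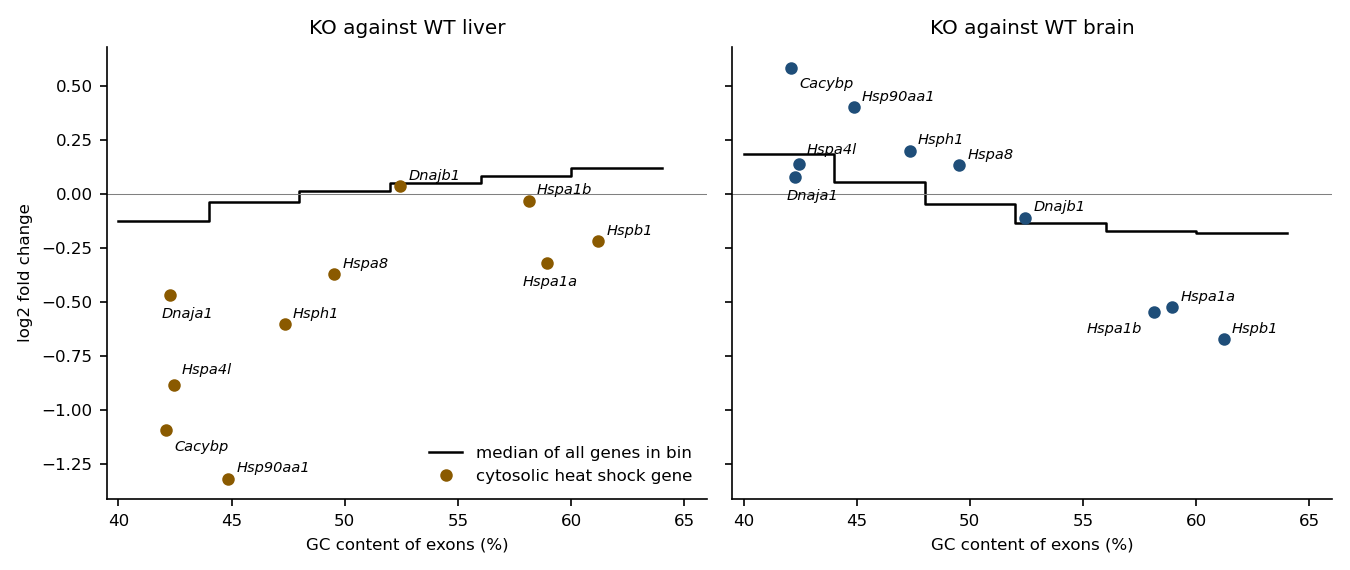
Log2 fold change of KO against WT in liver (left) and brain (right) of the 10 cytosolic heat shock genes (points) against the GC content of their exons in percent; the black line is the median of all genes tested in each bin of GC content. The line runs from -0.12 up to 0.12 in liver and from 0.18 down to -0.18 in brain, and the liver points of Hspa4l, Cacybp and Hsp90aa1 lie far below it.

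Other measures differed between the brain groups as well. Mitochondrial rRNA took 7.63% to 17.7% of counts in WT and 21.4% to 31.6% in KO brain. Of 9 olfactory bulb markers all 9 were above 0 (6 called by edgeR, 7 by DESeq2), with summed levels of 18.3 to 28.3 CPM in WT and 67.8 to 93.6 CPM in KO. All 9 cerebellum markers and all 7 choroid plexus markers were below 0, with 0 called by edgeR (8 and 4 at an unadjusted p under 0.05) and 2 and 1 by DESeq2, and with sums of 818 to 1259 against 175 to 530 CPM and of 28.1 to 41.4 against 19.5 to 23.8 CPM. Their part in the values of the heat shock genes was not tested.

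The rest of the chaperone system was read from lists of genes grouped by role. Of the HSF genes and HSF-binding protein, 4 were tested in liver, and Hsf1 was at 13.8 ± 3.98 CPM in WT (SD, n = 3) and 17.7 ± 2.03 CPM in KO (SD, n = 3). Its log2 fold change was 0.33 (SE 0.22), with Hsf2 at -0.01 (SE 0.12) and Hsbp1, which dissociates HSF1 trimers, at 0.01 (SE 0.13). In brain Hsf1 was at 0.02 (SE 0.21, edgeR adjusted p 0.978), with 0 of 5 genes of that list called. Transcript levels of Hsf1 do not show its activity, which is set on the protein.

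In liver, the 11 genes of HSP90 beta and the HSP90 co-chaperones had a median log2 fold change of -0.23, with 8 below 0. Hsp90ab1, the constitutive HSP90, was at 1791 CPM in WT and 1656 CPM in KO (-0.14, SE 0.17), and Fkbp4, the immunophilin that moves steroid receptors, was at -0.31 (SE 0.17). The other HSP70 and HSP110 genes had a median of -0.09 over 5 tested, with Hspa4 at -0.30 (SE 0.17) and Hspa14 at -0.09 (SE 0.18). The 16 HSP70 co-chaperones were at a median of -0.06, with St13 at -0.09 (SE 0.13) and Dnaja2 at -0.12 (SE 0.145). The 8 subunits of TRiC, the chaperonin that folds actin and tubulin, were at -0.06, with Cct5 at -0.065 (SE 0.15) and Tcp1 at 0.06 (SE 0.16). The 9 other heat-inducible genes were at -0.03, with Hspd1 at -0.24 (SE 0.15), and the 3 other small heat shock genes tested at 0.11, with Hspb8 at -0.32 (SE 0.15) and Hspb6 at 0.31 (SE 0.47). In these lists KO lay wholly below WT for 3 genes, Hspa2 at -0.54 (SE 0.27), Chordc1 at -0.605 (SE 0.20) and Bag1 at -0.34 (SE 0.14), and wholly above WT for 3 genes, Bag5 at 0.23 (SE 0.16), Hspbp1 at 0.29 (SE 0.16) and Serpinh1 at 0.37 (SE 0.135), all named after their values were seen. Over all genes the shares were 5.18% below and 8.03% above.

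Chaperones of mitochondria and of the endoplasmic reticulum had unlike medians in liver. The 6 mitochondrial chaperones had a median of 0.02, with Hspa9 at -0.03 (SE 0.15) and Lonp1 at 0.13 (SE 0.13). All 13 chaperones of the endoplasmic reticulum, which answer to the unfolded protein response rather than to HSF1, were below 0, with a median of -0.405. Calr was at -0.02 (SE 0.28) and Hspa5, the HSP70 of that compartment, at -0.98 (SE 0.48), and the libraries of both overlapped. Hsp90b1, its HSP90, named after its values were seen, was the one without overlap, at -0.93 (SE 0.18). The cold-inducible RNA-binding genes Cirbp and Rbm3 were at 0.22 (SE 0.17) and -0.04 (SE 0.145). Heat shock genes are known to cycle with the time of day in liver, and the core clock genes had a median of -0.55 over 16 tested, 12 of them below 0, with Clock at -0.01 (SE 0.15) and Bhlhe40 at -1.23 (SE 0.21). The other 4 were above 0, so the median does not describe the whole list. Among these 4, Arntl, named after its values were seen, had KO wholly above WT, at 0.51 (SE 0.21). The labels give no collection time, and the part of the clock genes was not tested.

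In brain, 0 of the 95 genes of these lists that were tested were called by edgeR, with 5 at an unadjusted p under 0.05, and DESeq2 called 0 of 99. Over all genes 0.064% were called by edgeR, 11.0% had an unadjusted p under 0.05 and DESeq2 called 0.84%. Hsp90ab1 was at -0.275 (SE 0.16, edgeR adjusted p 0.523), the reverse sign of Hsp90aa1, and Cdc37, the HSP90 co-chaperone for kinases, at -0.19 (SE 0.14, edgeR adjusted p 0.598). Hspa4 was at 0.20 (SE 0.15, edgeR adjusted p 0.603) and Hspa12a at -0.08 (SE 0.16, edgeR adjusted p 0.850). Among HSP70 co-chaperones St13 was at -0.19 (SE 0.13, edgeR adjusted p 0.584) and Bag1 at 0.14 (SE 0.13, edgeR adjusted p 0.666), and among TRiC subunits Tcp1 was at -0.27 (SE 0.13, edgeR adjusted p 0.482) and Cct5 at -0.08 (SE 0.15, edgeR adjusted p 0.841). The list medians ran from -0.47 for the other small heat shock genes, in which Cryab was at -0.525 (SE 0.15, edgeR adjusted p 0.345) and Hspb8 at -0.31 (SE 0.20, edgeR adjusted p 0.560), to 0.02 for the HSF genes, in which Hsf2 was at 0.10 (SE 0.17, edgeR adjusted p 0.828) and Hsbp1 at -0.07 (SE 0.13, edgeR adjusted p 0.858). Of the other heat-inducible genes, Ubb was at -0.19 (SE 0.16, edgeR adjusted p 0.638) and Slc5a3 at -0.15 (SE 0.14, edgeR adjusted p 0.682). All 6 mitochondrial chaperones were below 0, with a median of -0.11 (Hspa9 at -0.15, Lonp1 at -0.23), and of the 13 chaperones of the endoplasmic reticulum 9 were below 0, with Canx at -0.07 (SE 0.14, edgeR adjusted p 0.861) and Hsp90b1 at 0.40 (SE 0.19, edgeR adjusted p 0.466). Cirbp was at -0.24 (SE 0.18, edgeR adjusted p 0.614) and Rbm3 at -0.185 (SE 0.14, edgeR adjusted p 0.602), and of the clock genes 15 of 17 were below 0, with Clock at 0.20 (SE 0.15, edgeR adjusted p 0.611) and Tef at -0.17 (SE 0.15, edgeR adjusted p 0.652).

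**Figure D5:**
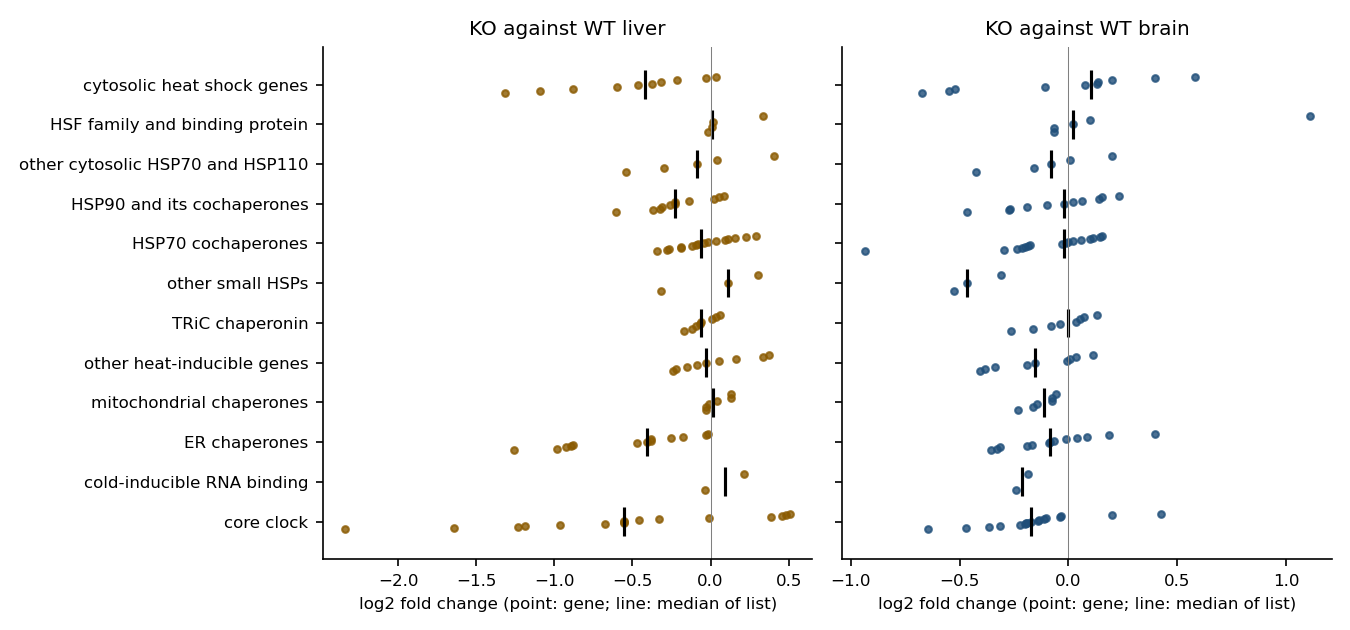
Log2 fold change of KO against WT in liver (left) and brain (right) for the genes of each list; points are genes tested and black lines list medians. Among the lists shown, the cytosolic heat shock genes (-0.42), the endoplasmic reticulum chaperones (-0.405) and the core clock (-0.55) have the lowest medians in liver, and the other small heat shock genes (-0.47) in brain.

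The members also differed in how far they moved together. For each member, the deviation of its log2 CPM from the mean of its tissue was set against the average deviation of the 9 others over the 12 libraries. Pearson's r was 0.786 for Hsp90aa1, 0.777 for Dnaja1, 0.762 for Hspa4l, 0.712 for Hsph1, 0.653 for Hspa8 and 0.543 for Cacybp. It was 0.326 for Hspb1, 0.204 for Hspa1b, -0.043 for Hspa1a and -0.165 for Dnajb1. Outside the list, among 7989 genes with at least 5 CPM in both tissues, the profiles most like the mean of the members were those of Ubxn4 (r = 0.936), Pgm3 (0.925), Gbe1 (0.915), Gpam (0.910) and Piga (0.910). Ubxn4 was at 210 CPM in WT and 144.8 CPM in KO liver and at 61.3 and 63.4 CPM in WT and KO brain. On the log2 scale, KO minus WT liver was -0.56 (SE 0.17) for Ubxn4, -0.885 (SE 0.35) for Pgm3 and -0.46 (SE 0.20) for Gbe1. It was -0.945 (SE 0.245) for Gpam and -0.705 (SE 0.23) for Piga. All points of these correlations share the libraries and the genotype difference that chose the genes, so they are a description.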

How the data were processed

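RNA of liver and brain from 6 mice was analysed, 12 libraries in 4 groups of 3. The authors made the libraries with the SMARTer Stranded Total RNA-Seq Kit and, per their methods and processing notes, trimmed reads with Trimmomatic, aligned them to mm10 with STAR 2.7.3a and counted reads per gene over exons with featureCounts, using strand. They deposited raw counts per gene, not normalized. Library totals of 14403309 to 21623180 counts set the precision, and standard errors are beside each value.

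Each contrast was fitted in the 6 libraries it compares with edgeR 4.0.16 (R 4.3.3; filterByExpr, TMM, quasi-likelihood test, Benjamini-Hochberg over all genes tested, called at adjusted p under 0.1). CPM shown use TMM over all 12 libraries. Profile likeness used log2(CPM + 0.5) and genes with at least 5 CPM in both tissues. Alternatives were DESeq2 1.42.0 and its size factors, library totals, no filter, 1 fit of all libraries, a Y-linked covariate, the mouse as a block, leaving out each library, Hspa1a and Hspa1b summed, and a GC offset (added after seeing the data). The members and lists were chosen with earlier results of these data known. Beside the members, Mettl5, Hsf1, Cirbp and Rbm3, the text names by rule the 2 genes of each list with the highest mean CPM in the tissue and the 5 most alike profiles. One gene that the rule names in liver is not reported here. Same-letter liver and brain libraries come from 1 mouse by their labels, so the letters pair the tissues. Their deviations from group means correlated at -0.0571 to 0.126 over 12574 genes. These values are low and of mixed sign, so the pairing rests on the labels alone. The study's text speaks of pairs of mice, but the labels do not say which KO and WT mice form one, so genotypes were compared without pairing. The test was checked on counts simulated for the brain contrast over 16835 genes, where 75.0% of 100 genes changed by 1 on the log2 scale were called. The changed genes were drawn from those above 5 CPM, and no GC trend or difference in brain region was simulated. Hspa1a, Hspa1b and Hspb1 lay below 5 CPM in every brain library, so this share does not carry over to the members in the brain data. There Mettl5, at -0.84, was not called (edgeR adjusted p 0.373). Promoter windows are from RefSeq (GRCm38.p6).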

Additional observations from a re-analysis of the deposited data

Results flagged for a closer look

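Hsp90aa1 lay on opposite sides of WT in the 2 tissues of KO mice. All 3 KO livers lay below all 3 WT livers (log2 fold change -1.32), and all 3 KO brains lay above all 3 WT brains (0.40), so the brain value exceeded the liver value by 1.715 on the log2 scale. This difference was not tested. Of 12574 genes tested in both tissues, 103 (0.819%) had this pattern. GC content, mitochondrial rRNA and brain region markers also differed between the groups, and their part was not tested. With the GC offset the values were -1.26 in liver and 0.31 in brain.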

How the results depend on the processing

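The median of the members in liver ran from -0.597 (without KO mouse C) to -0.367 when single libraries were left out. In brain 1 member, Cacybp, passed with no filter on low counts, and 0 in each fit that left out 1 library. Signs turned for several values, among them the called Dnaja1 value in WT liver against brain (0.825). In liver, Hspb1 was at 0.169 without WT mouse B, Hspa1b at 0.049 with library totals, 0.005 without KO mouse A, 0.138 without WT mouse D and 0.132 without KO mouse F, and Dnajb1 at -0.007 with the GC offset, -0.002 without KO mouse A and -0.057 without WT mouse B. In brain, library totals gave -0.09 for Hspa4l, -0.032 for Hsph1, -0.106 for Hspa8 and -0.152 for Dnaja1, and the GC offset gave -0.046 for Hspa4l, 0.005 for Dnajb1 and -0.121 for Dnaja1. With 1 library left out, Hspa8 ran from -0.017 to 0.243 and Dnaja1 from -0.016 to 0.192 in brain, both lowest without KO mouse A. In liver against brain, library totals gave -0.579 for Hspa8 and -0.011 for Dnaja1 in WT and -0.24 for Dnaja1 in KO, and Hspa8 in KO ran from -0.509 to 0.004, the latter without KO mouse A. The causes were not tested, beyond the shift that library totals put on all genes.

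With the mouse as a replicate block, the members called in liver against brain were 8 in WT and 7 in KO, the same calls as without it. The adjusted p of Cacybp in brain ran from 0.0305 to 0.935 over the alternatives. Low counts limit Hspa1a in liver (5 to 17 counts) and Hspb1 in KO brain (19 to 30 counts). With 3 mice a group, no collection time in the labels, and GC content and mitochondrial rRNA that differ between genotypes, small differences between genotypes could not be resolved.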
